A study of Mus musculus with 9 samples.

Results

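The cerebral cortex of wild-type mouse embryos at embryonic day 18.5, shortly before birth, was described from the 3 wild-type (WT) libraries of a study of the gene Cyfip2. The study held 9 libraries, 3 each of WT, Cyfip2 heterozygous and Cyfip2 knockout cortex, and the mutant libraries were not used here. The 3 WT libraries came from the strain C57BL/6J, from tissue labelled cortex, and no treatment is named for them. Their labels do not say that they came from separate embryos, so the spread between them may be technical in part. They were chosen by genotype and by no measured value, but with earlier results of these data known. Of the 18820 genes in the table, 18002 on chromosomes 1 to 19 and the mitochondrial genome were described. The other genes were 781 on chromosomes X and Y, 17 on unplaced scaffolds and 20 with no match in the annotation.

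Late in gestation the mouse cortex is a sheet of young glutamatergic neurons in layers, built from the inside outwards by radial glia and by the intermediate progenitors that radial glia give rise to. Deep layer neurons are made first and upper layer neurons last. Inhibitory interneurons migrate in from the ventral forebrain, and astrocytes and oligodendrocytes are only starting to form. A young neuron extends an axon and dendrites, which requires large amounts of tubulin, actin and the proteins that bind them.

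2 scales are used. The normalized value is the deposited number, a read count divided by a library's size factor, and it serves to compare 1 gene between libraries. The length-scaled level is that value divided by the length of the gene's longest annotated transcript, scaled so that the described genes of a library sum to 1000000. It serves to compare genes with each other, and every value called a level below is of this kind. Errors are SDs over the 3 libraries (n = 3).

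In units of 1000000, the normalized values of WT replicates 1, 2 and 3 summed to 37.1, 36.8 and 36.7, which corresponded to about 30.96, 54.49 and 38.75 in the same units of reads. Replicate 2 was thus the deepest. Over the 12721 genes with a mean normalized value of at least 50, the root mean square log2 difference was 0.29 between replicates 1 and 2, 0.38 between 1 and 3, and 0.36 between 2 and 3. Replicate 3 stood farthest from the others by this measure, and the counts of variable genes are given with and without it. The cortex label was set beside markers of the dorsal cortex and of distant regions only. Lists for neighbouring tissues, such as striatum, hippocampus, choroid plexus and olfactory bulb, are given further below. Emx1, a transcription factor of the dorsal cortex, stood at 57.0 ± 6.09 and Neurod6, a factor of its glutamatergic neurons, at 950 ± 48.4. The list of midbrain and hindbrain markers, with 7 of 11 members in the table, summed to 3.05 ± 1.09. That of spinal cord Hox genes, with 2 of 12 members in the table, summed to 0.189 ± 0.0958.

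The tissue used most of its described genes, and a small set of them supplied much of the message. A level of at least 1 was reached by 13409 genes, a level of at least 10 by 9574, at least 100 by 1829 and at least 1000 by 99. The median level of the genes at 1 or more was 24.7, and the highest gene stood 858-fold above it. The 10 highest genes held 13.4% ± 0.46 of the summed level, the 100 highest 30.9% ± 0.355 and the 1000 highest 58.4% ± 0.322. The share of the top 100 was 31.27%, 30.56% and 30.99% in replicates 1 to 3, so the libraries were near each other in this respect. Of these 100 genes, 90 were also among the top 100 of each library taken alone.

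Tubulin genes, which encode the microtubule lattice, were among the highest. Tuba1a (chr15:98949837-98953703, minus strand of GRCm38), the alpha tubulin of young neurons, ranked first with levels of 21888, 20986 and 20727 in replicates 1 to 3. Tubb2b, a beta tubulin whose mutation disturbs neuronal migration, ranked eighth with 9990.2, 9124 and 9143. Tubb3, the neuronal beta tubulin used as a marker of young neurons, stood at 4002 ± 17.9, and Tubb5 at 3994 ± 113. For Tuba1a, Tubb3 and Tubb5 the SD was a small fraction of the level, and Tubb2b was highest in replicate 1. Stmn1, or stathmin, which binds free tubulin dimers, had levels of 4002, 4624 and 4999, lowest in replicate 1 and highest in replicate 3.

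Actin genes and the translation machinery were also high. Actg1, the gamma cytoplasmic actin, stood at 5066 ± 42.6 and Actb, the beta actin, at 2869 ± 90.9. Eef1a1, the elongation factor that brings aminoacyl-tRNA to the ribosome, stood at 12017 ± 186. Tmsb10, a thymosin that binds actin monomers, reached 3253 ± 74.1, Ptma (prothymosin alpha) 4366 ± 415, Ubb, a polyubiquitin gene, 3569 ± 121, and Tpt1, a translationally controlled protein, 3105 ± 241. Rplp1, a protein of the ribosomal stalk, stood at 3434 ± 166. The 79 cytosolic ribosomal protein genes in the table took 6.88% ± 0.316 of the summed level, with 29 of them in the top 100.

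**Figure D1:**
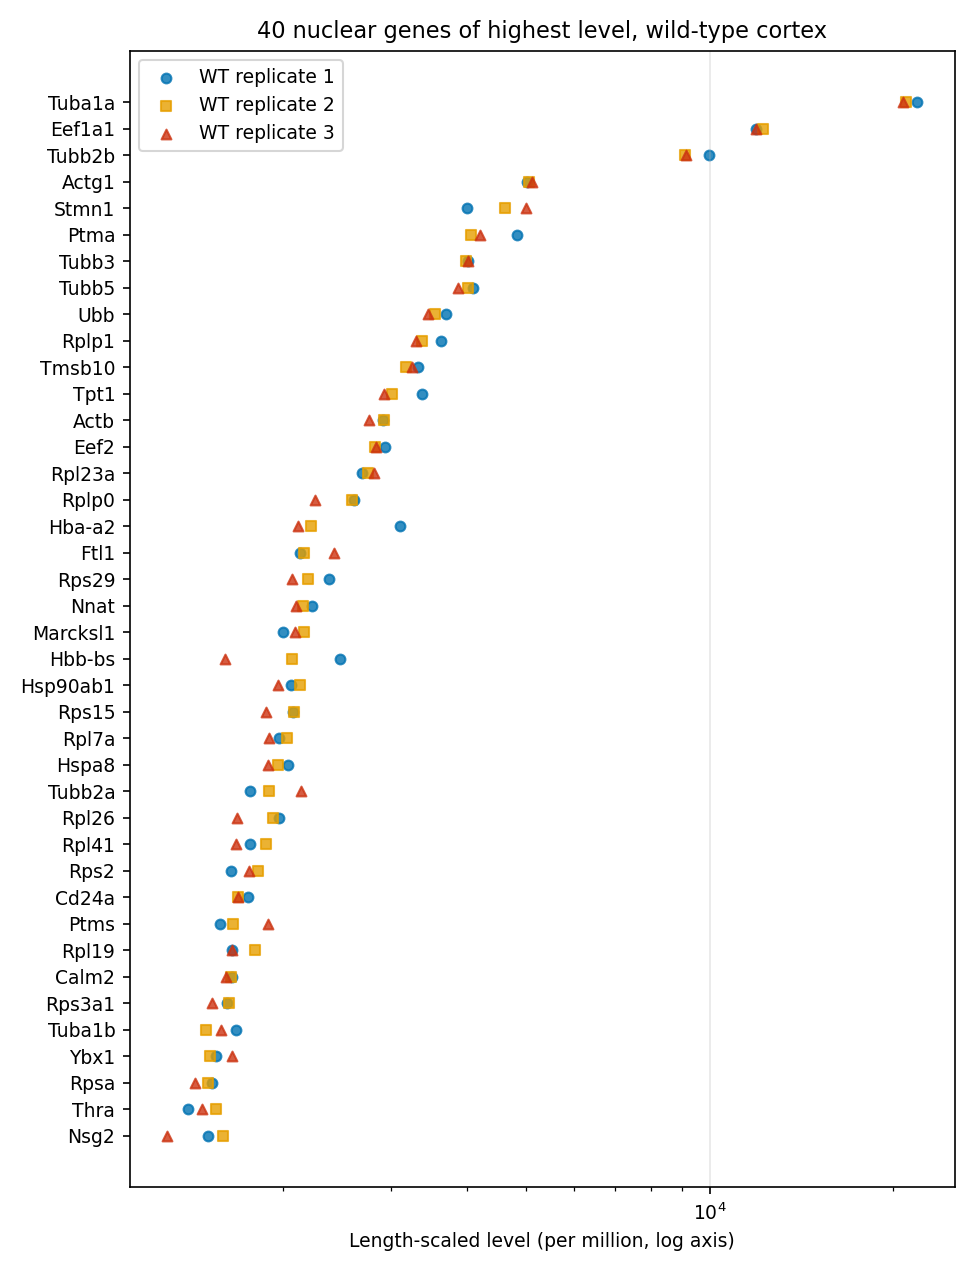
Length-scaled level (log axis, scaled to a sum of 1000000 per library) of the 40 nuclear genes of highest mean level that have a proper name, with 1 point for each WT library. Tuba1a stands apart at the top at 21200.4, and the 3 points of most genes nearly coincide, while the alpha and beta globin genes Hba-a2 and Hbb-bs are spread out.

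Mitochondrial messages were the other large group. The 13 mitochondrial genes in the table took 10.16%, 10.53% and 11.43% of the summed level in replicates 1 to 3, and 12 of them were in the top 100. The catalytic core of cytochrome c oxidase was represented by mt-Co1 at 17045 ± 655, mt-Co2 at 16794 ± 1398 and mt-Co3 at 14777 ± 2072. The ATP synthase gene mt-Atp6 stood at 16471 ± 1291 and mt-Atp8 at 8493 ± 221. Cytochrome b (mt-Cytb) stood at 9774 ± 536. Of the complex I subunits, mt-Nd4 was at 5933 ± 443, mt-Nd1 at 5709 ± 236, mt-Nd4l at 5535 ± 144 and mt-Nd2 at 2889 ± 181.

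The levels of several mitochondrial genes are uncertain, because the nuclear genome carries near-identical copies of them. The 7 nuclear genes in the table that share most of their sequence with a mitochondrial gene took 1.76%, 0.97% and 1.01% of the summed level. The highest, Gm29216, an unprocessed pseudogene on chromosome 1, had rank 10 with a level of 8250 ± 737, and it and the other copies below are named because of their values. A stretch of 60 bases of mt-Co1 and of its copy is shown to let the difference be seen, with the bases that differ between them in capitals. Over all 492 bases compared, the 2 genes differ at 6, all of them in this stretch, and they are 98.8% identical. The coordinates are those of GRCm38, chrM:6381-6440 on the plus strand and chr1:24616138-24616197 on the minus strand.
mt-Co1: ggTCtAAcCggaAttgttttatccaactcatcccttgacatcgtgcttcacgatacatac
Gm29216: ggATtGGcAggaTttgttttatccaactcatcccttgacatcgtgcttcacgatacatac

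The copy of mt-Co2, Gm28661, is identical to it over all 681 bases compared. Its first 60 bases are shown for both, in lower case throughout because none differ, from chrM:7013-7072 on the plus strand and chr1:24615506-24615565 on the minus strand of GRCm38. A read from inside this sequence cannot be assigned to either gene by its letters.
mt-Co2: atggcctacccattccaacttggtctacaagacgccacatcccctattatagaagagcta
Gm28661: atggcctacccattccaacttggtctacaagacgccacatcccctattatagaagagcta

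Use of paralogs, the related genes that encode alternative versions of the same protein, was next described in 56 families with 186 members in the table. Members on chromosomes X and Y were left out, so each share is a share of the members described. In 37 families the leading member held at least 60% of the family's summed level, in 8 at least 90%, and in 9 less than 50%. The leading member was above the second in all 3 libraries in 55 of the 56 families. The exception was the sodium channel alpha subunits. The leading member was the same with every other choice of transcript length in 41 of 56 families, and most of those where another gene led are given with the processing. They include the WAVE proteins, intermediate filaments, calmodulins, sodium channels and vesicular glutamate transporters. Also among them are the families led below by Gad1, Ldha, Syt4, Nova2, Smarca4, Dpf1, Dnmt1 and Tet3. The share of the leading member had an SD under 5 percentage points in 54 families. Of the 174 members with a mean normalized value of at least 50, 6 differed more than 2-fold between the highest and the lowest library, or 3.45%. Without replicate 3, only Gfap among them did. Over 3 libraries, the same held for 304 of the 12721 genes of that level over the whole table, or 2.39%.

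The WAVE regulatory complex, which switches on branched actin assembly at the cell edge and holds the gene product that the study removed, drew mainly on Cyfip2, Wasf1, Abi2 and Nckap1. Cyfip2 stood at 119, 123 and 132 in replicates 1 to 3 and Cyfip1, the other gene for this subunit, at 48.0, 46.7 and 45.4. All 3 libraries therefore had more Cyfip2, and it took 72.7% ± 1.63 of the pair. Among the WAVE proteins themselves, Wasf1 took 72.3% ± 1.53, with levels of 124, 147 and 129, against 29.2 ± 2.89 for Wasf3 and 21.7 ± 4.39 for Wasf2. Abi2 led Abi1 by less, at 92.3 ± 8.31 against 61.4 ± 2.68, a share of 59.7% ± 3.18, while the blood cell member Abi3 stood at 0.588 ± 0.109. Nckap1 held 99.0% ± 0.108 over its blood cell paralog Nckap1l, at 213 ± 4.36 against 2.23 ± 0.26. Levels of microglial markers are given below.

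The alpha tubulins were the most uneven of the large cytoskeletal families. Tuba1a held 92.8% ± 0.26 of their summed level and stood 13.4-fold above Tuba1b, at 1584 ± 90.02. Tuba1c stood at 39.7 ± 8.12 and Tuba4a at 11.3 ± 3.27, and Tuba8 at 0.0598 ± 0.067. Tuba1a and Tuba1b share much of their sequence: 66.4% of the 31-base words of the Tuba1a transcript occur in another gene of the table, and 75.2% of those of Tuba1b. How the submitters' software split reads between them was not tested.

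The 150 bases before the RefSeq start site of these genes are shown next to each other, because the genes are near neighbours on chromosome 15 with similar products and a large difference in level. Both are read from the minus strand of GRCm38.p6, Tuba1a from chr15:98953502-98953651 and Tuba1b from chr15:98934391-98934540. Capitals mark motif matches on either strand, and no 2 of the matches shown overlap. The TATA box was searched as TATAAA, and the CCAAT box by the letters of its name. The GC box, a site bound by Sp1 and its relatives, was searched as GGGCGG. The E-box, the kind of site that basic helix-loop-helix factors bind, was searched as CAGATG. The cyclic AMP response element, bound by CREB, was searched as TGACGTCA. Each of these 2 stretches has 1 GC box, on the opposite strand, starting 63 bases before the start site in Tuba1a and 95 bases before it in Tuba1b.
Tuba1a: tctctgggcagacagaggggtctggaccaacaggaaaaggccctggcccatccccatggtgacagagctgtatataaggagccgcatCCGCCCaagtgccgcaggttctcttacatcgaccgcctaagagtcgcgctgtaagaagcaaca
Tuba1b: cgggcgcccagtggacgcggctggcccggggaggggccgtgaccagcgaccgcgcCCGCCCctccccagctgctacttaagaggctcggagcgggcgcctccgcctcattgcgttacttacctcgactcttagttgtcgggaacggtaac

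RefSeq promoters of 300 bases, from 250 before to 50 after the start, were matched to 12428 genes. In percentage points, the GC box was the motif that differed most with level. It was present in 69.8% of the genes at a level of 1 or more and in 32.4% of those under 1, beside 62.6% of all. The median number of CpG dinucleotides in the window was 21 and 6 in these groups. A TATA box was present in 8.34% of genes at 1 or more, in 16.5% under 1 and in 9.92% of all, and in 15 of the 100 highest genes. CCAAT was present in 41.8% of all genes, the E-box in 14.8% and the cyclic AMP response element in 3.21%. A match is a description of letters and not a site of binding.

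Beta tubulins were shared between several genes. Tubb2b held 46.6% ± 1.44 of the sum, followed by Tubb3 and Tubb5 at nearly equal levels, Tubb2a at 1931 ± 191, Tubb4a at 456 ± 39.96, Tubb4b at 383 ± 11.51 and Tubb6 at 17.8 ± 1.76. Among the stathmins Stmn1 held 68.1% ± 0.948, with Stmn2, a neuronal member, at 819 ± 104. Of the structural microtubule-associated proteins, Mapt (tau) led with 40.2% ± 1.49 at 1022 ± 72.3. Map2, the dendritic member, stood at 633 ± 6.02 and Map1b at 573 ± 18.6, while Map1a, which is used more by mature neurons, stood at 25.5 ± 3.77. Map4 stood at 173 ± 12.02 and Map6 at 116 ± 10.504. Dclk1 held 63.6% ± 1.87 of the doublecortin-like kinases.

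Actin-binding families were led by 1 member each. Cfl1, the non-muscle cofilin that severs actin filaments, held 73.4% ± 1.41, and Pfn2, the neuronal profilin, held 67.8% ± 1.28 over the ubiquitous Pfn1. Actg1 held 63.8% ± 0.91 of the 2 cytoplasmic actins. Marcksl1 held 88.6% ± 0.461 over Marcks. Kinesin 1 heavy chains were more evenly used, with Kif5c at 270 ± 10.05 or 46.8% ± 1.89, Kif5a at 223 ± 13.9 and Kif5b at 83.3 ± 2.72.

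Intermediate filaments mixed neuronal and progenitor members. Ina, or alpha-internexin, the first neurofilament protein of young neurons, had levels of 328, 370 and 323 and held 40.5% ± 3.29. Vim, the vimentin of radial glia and vessels, had levels of 316, 353 and 227 and was lowest in replicate 3. Nes (nestin) stood at 66.8 ± 9.03, Nefm at 64.4 ± 14.3 and Nefl at 63.2 ± 9.14. The astrocyte filament Gfap stood at 10.6 ± 4.57, Prph at 1.45 ± 0.231 and the heavy neurofilament Nefh, a late gene, at 0.902 ± 0.252.

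**Figure D2:**
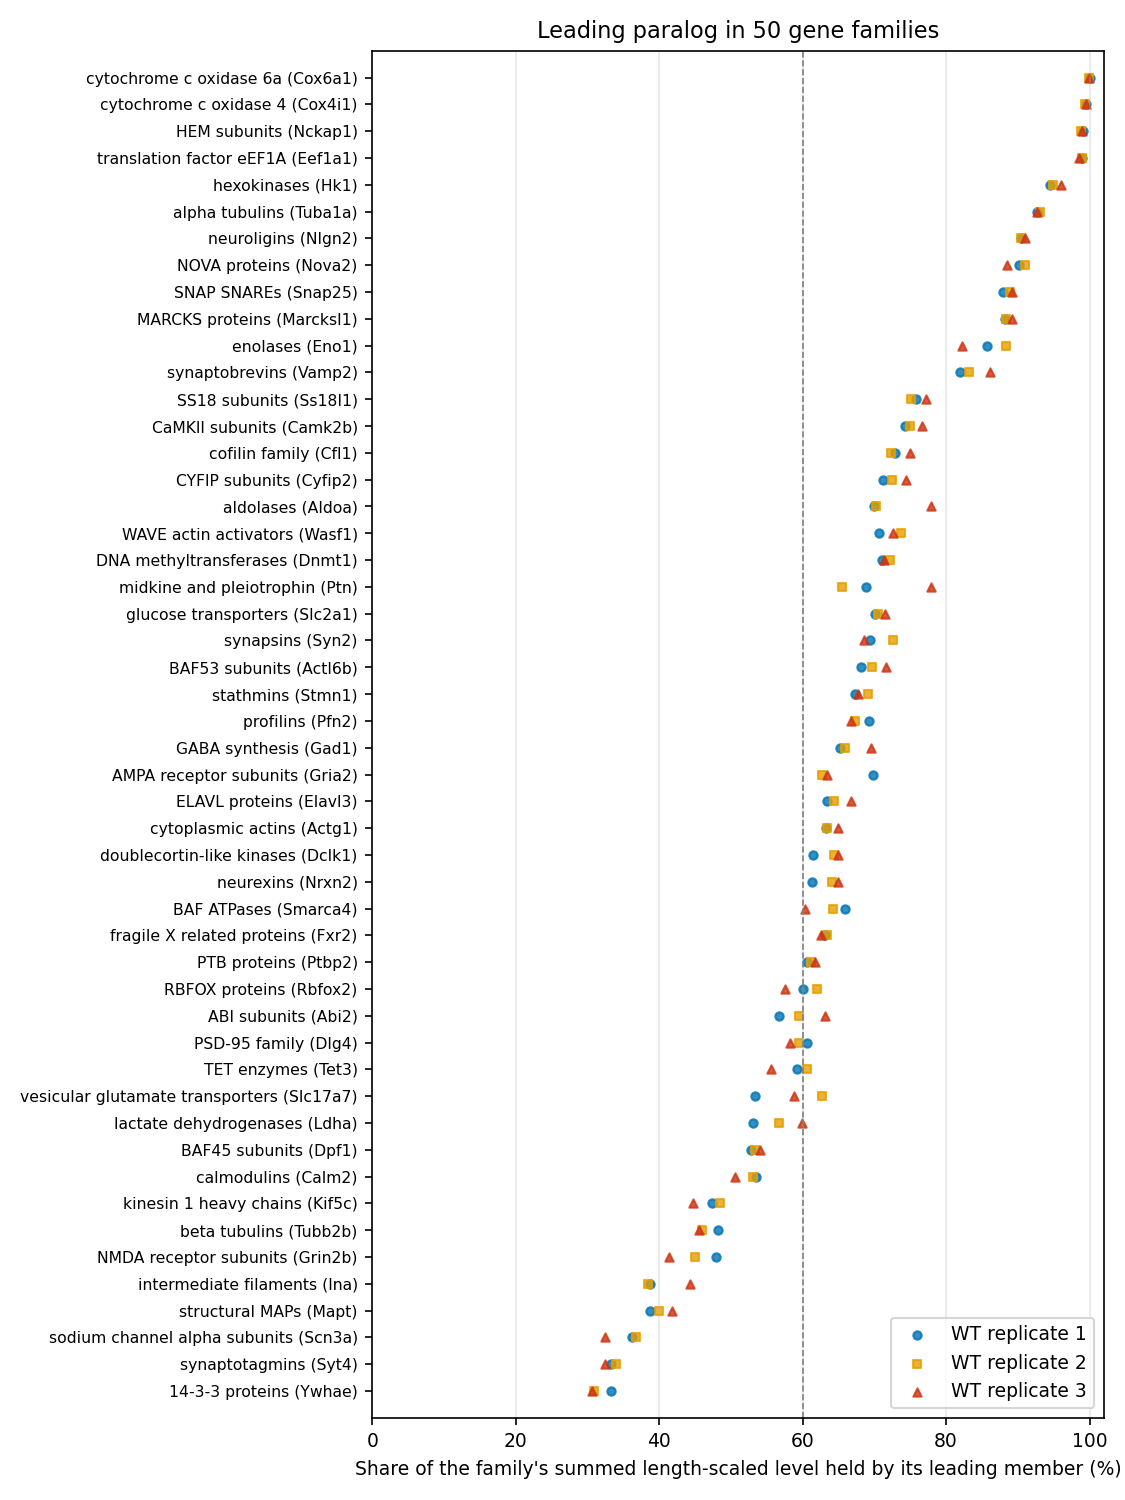
Share of the summed length-scaled level (%) of 50 of the families held by the leading member, named in brackets, with 1 point for each WT library and a dashed line at 60%. Shares run from about 30% for the 14-3-3 proteins to almost 100% for Cox6a1 and the 3 points of a family mostly lie close together, with midkine and pleiotrophin the most spread of those shown at an SD of 6.41 percentage points.

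NMDA receptor genes were led by the subunit of the young brain. Grin2b, which occupies most receptors before birth, had levels of 59.8, 61.3 and 66.4 and held 44.7% ± 3.26, while Grin2a, which replaces it after birth, stood at 0.585 ± 0.146. The obligatory subunit Grin1 had levels of 43.4, 50.2 and 60.7. Grin3a stood at 13.4 ± 3.75, Grin2d at 10.7 ± 1.89, Grin2c at 1.86 ± 0.462 and Grin3b at 0.158 ± 0.0398. Among the AMPA receptor genes on the autosomes, Gria2, the subunit that blocks calcium entry, held 65.3% ± 3.92, with Gria1 at 92.2 ± 10.46 and Gria4 at 36.7 ± 2.16. The gene of this family on chromosome X was outside the genes described.

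GABA-A receptors are chloride channels, and the chloride transporters set the effect of opening them. Gabra5, an alpha subunit, had levels of 31.7, 39.4 and 65.2 and was 2-fold higher in replicate 3 than in replicate 1, with a log2 range of 1.02. Gabra2 stood at 15.1 ± 3.57, Gabra4 at 9.13 ± 1.29 and the cerebellar Gabra6 at 0.0512 ± 0.0174. Slc12a2, or NKCC1, which loads chloride, had levels of 28.3, 30.97 and 24.5, against 17.5, 18.7 and 26.1 for Slc12a5, or KCC2, which extrudes it. The order of these 2 genes was reversed in replicate 3, so the libraries did not give them 1 order, at means of 27.9 ± 3.24 for Slc12a2 and 20.8 ± 4.63 for Slc12a5. Slc12a7 stood at 15.6 ± 1.79 and Slc12a4 at 14.2 ± 1.38.

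Sodium channels had a pair of leading members at similar levels. Scn3a, the channel of the embryonic brain, had levels of 47.2, 46.4 and 45.8, and Scn2a had 39.4, 39.2 and 50.9, so that Scn2a was higher in replicate 3 only. Scn8a stood at 32.2 ± 2.14 and Scn1a, the channel of mature interneurons, at 10.7 ± 0.57. Slc17a7, the vesicular glutamate transporter of the adult cortex, stood at 55.1 ± 7.30 and its subcortical partner Slc17a6 at 39.1 ± 4.51, with Slc17a8 at 0.27 ± 0.145. For GABA synthesis Gad1 held 66.9% ± 2.31 over Gad2.

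Synaptic release genes were already present. Snap25 held 88.7% ± 0.619 over Snap23, and Vamp2 held 83.8% ± 2.10 of the synaptobrevins. Among the autosomal synapsins, which coat vesicles, Syn2 held 70.2% ± 2.12 over Syn3. Of the synaptotagmins, Syt4 led at 263 ± 23.4, followed by Syt11 at 178 ± 0.981, while Syt1, the fast calcium sensor, had 111, 120 and 159, Syt5 129 ± 14.97 and Syt7 84.1 ± 18.5. Syt13 stood at 6.98 ± 2.88 and Syt2, a hindbrain form, at 1.72 ± 1.22. On the receiving side, Dlg4, or PSD-95, stood at 140 ± 2.98 against 61.4 ± 7.53 for Dlg2 and 34.0 ± 2.01 for Dlg1. Nrxn2 held 63.5% ± 1.91 of the neurexins and Nlgn2, the neuroligin of inhibitory synapses, 90.6% ± 0.319 over Nlgn1.

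Kinases, calcium sensors and secreted factors were next. Camk2b held 75.3% ± 1.26 of the calmodulin kinase II genes with levels of 311, 352 and 394, whereas Camk2a, which dominates the adult forebrain, stood at 21.1 ± 2.07. Calm2 stood at 1634 ± 21.7 and Calm3 at 899.7 ± 52.6. The 14-3-3 adaptor proteins were spread over several genes, from Ywhae at 1303 ± 49.4 through Ywhag at 818 ± 48.9, Ywhaq at 678 ± 3.46, Ywhaz at 626 ± 1.56 and Ywhab at 358 ± 15.4 to Ywhah at 338 ± 23.1, with the epithelial Sfn at 2.65 ± 0.767. Ptn, or pleiotrophin, had levels of 344, 314 and 448 and held 70.8% ± 6.41 over Mdk.

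Splicing and chromatin families include members that replace each other as progenitors become neurons. Elavl3 held 64.9% ± 1.72 of the ELAVL proteins, and Ptbp2, the neuronal splicing repressor, held 61.1% ± 0.573 over the progenitor form Ptbp1. Rbfox2 stood at 345 ± 7.37, Rbfox1 at 149 ± 9.87 and Rbfox3, the mature neuronal marker NeuN, at 82.0 ± 9.43. Nova2 held 89.9% ± 1.26 and Fxr2 held 63.1% ± 0.431 over Fxr1. In the BAF chromatin remodelling complex, Actl6b, the subunit of postmitotic neurons, held 69.8% ± 1.77 over the progenitor subunit Actl6a, and Ss18l1 held 76.0% ± 1.12 over Ss18. Dpf1, a neuronal subunit, stood at 158 ± 9.49, with Dpf2 at 72.2 ± 4.25, Phf10, a progenitor subunit, at 56.7 ± 1.80 and Dpf3 at 8.44 ± 0.945. Smarca4 held 63.5% ± 2.89 over Smarca2.

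Enzymes of DNA methylation and of energy metabolism completed the families. Dnmt1 held 71.5% ± 0.58, and Tet3 stood at 50.5 ± 2.20 with Tet2 at 22.9 ± 2.26 and Tet1 at 12.9 ± 1.695. Hk1 held 95.1% ± 0.797 of the hexokinases, Aldoa 72.7% ± 4.47 of the aldolases, Eno1 85.4% ± 3.02 of the enolases and Slc2a1 70.7% ± 0.731 of the glucose transporters. Ldha stood at 452 ± 28.7 and Ldhb at 348 ± 27.0. Cox4i1 held 99.5% ± 0.0687 and Cox6a1 100% ± 0.0246 of their cytochrome c oxidase pairs, and Eef1a1 held 98.8% ± 0.209 over Eef1a2.

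Transcription factors that regulate cortical development were taken from lists of 103 genes present in the table. Of these, 97 had a level of at least 1, 79 of at least 10 and 26 of at least 100. The highest was Neurod6, a basic helix-loop-helix factor of glutamatergic cortical neurons, with levels of 988, 895 and 967. Zbtb18, a repressor needed for cortical neuron maturation, had 721, 723 and 692. Neurod2, which acts beside Neurod6, had 360, 374 and 374. The 3 libraries lay close together for these 3 factors.

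The 150 bases before the RefSeq start sites of Neurod6 and Neurod2 are shown because these 2 factors of 1 family were among the highest, with capitals as before. Neurod6 is read from chr6:55681264-55681413 and Neurod2 from chr11:98329646-98329795, both on the minus strand of GRCm38.p6. Neurod6 has 1 CCAAT match, on the opposite strand, starting 122 bases before the start site. Neurod2 has an E-box at 118 and CCAAT at 82 and 66 bases before it.
Neurod6: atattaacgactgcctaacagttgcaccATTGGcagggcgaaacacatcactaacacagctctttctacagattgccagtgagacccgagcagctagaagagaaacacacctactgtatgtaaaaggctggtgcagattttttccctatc
Neurod2: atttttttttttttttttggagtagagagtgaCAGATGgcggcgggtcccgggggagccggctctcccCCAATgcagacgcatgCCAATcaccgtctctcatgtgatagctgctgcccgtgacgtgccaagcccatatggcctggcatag

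Factors of general neuronal and glial development were also high. Nfix, a nuclear factor I protein, stood at 518 ± 40.5 and Nfib at 211 ± 28.9. The SoxC factors of young neurons, Sox4, Sox11 and Sox12, stood at 493 ± 28.3, 317 ± 28.7 and 155 ± 3.18. Id2, an inhibitor of basic helix-loop-helix factors, stood at 336 ± 10.04, Tcf4, their dimer partner, at 323 ± 35.96, and Zeb2 at 163 ± 14.6. Myt1l, which represses genes of other lineages in neurons, stood at 199.6 ± 10.01, and Bcl11a at 180.03 ± 13.01. Lhx2, a selector of cortical fate, had levels of 201, 231 and 141 and was lowest in replicate 3.

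Deep layer factors were led by Tbr1, the factor of corticothalamic layer 6 neurons, with levels of 201, 175 and 216. Fezf2, which specifies subcerebral projection neurons of layer 5, had 126, 143 and 97.9, and its downstream factor Bcl11b (Ctip2) stood at 67.4 ± 5.36. Sox5 stood at 81.2 ± 10.6, Zfpm2 at 17.9 ± 1.83 and Foxp2 at 12.1 ± 1.95. Nr4a2, a factor of subplate and claustrum, had the widest spread of the 8, with 35.6, 58.0 and 11.4, lowest in replicate 3. Etv1, a layer 5 factor, went the other way with 14.8, 14.5 and 25.4.

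Upper layer factors were led by Mef2c, with levels of 230.4, 236 and 330, highest in replicate 3 while the other libraries lay close together. The POU factors of upper layer neurons stood at 176 ± 9.77 for Pou3f3, 92.2 ± 17.4 for Pou3f2 and 45.2 ± 7.06 for Pou3f1. Bhlhe22 stood at 173 ± 26.6, Cux2 at 64.1 ± 3.68 and Cux1 at 42.2 ± 2.41. Rorb, the factor of layer 4, which matures after birth, stood at 8.73 ± 2.20.

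Whole families of factors differed in how many members were present. Of 17 Sox genes, 15 reached a level of 1, as did 22 of 31 Fox genes and 13 of 15 Klf genes. Pax6 made up 98.9% of the mean summed level of 8 Pax genes. The 4 Hox genes in the table summed to 0.319 ± 0.12, the 4 Irx genes to 1.25 ± 0.168 and the 7 Nkx genes to 2.43 ± 0.605. Of 6 Neurod and Neurog genes, Neurod6 made up 66.7%. Among activity-dependent factors Jun stood at 37.2 ± 5.33, Egr1 at 3.99 ± 1.13, Fos at 1.45 ± 0.233 and Fosb at 0.106 ± 0.0528, and 3 of the 12 listed reached a level of 10.

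Of the 94 transcription factors with a mean normalized value of at least 50, 11 differed more than 2-fold between libraries, or 11.7% beside 2.39% of all genes at that level. Their median log2 range was 0.40 beside 0.19. Without replicate 3, 1 of the 94 factors, Gsx2, had a range above 1, or 1.06% beside 0.574% of all 12721 genes, and the medians were 0.16 and 0.10. Replicate 3 had the lowest value for 50 of the 94 factors, or 53.2%, beside 39.7% of all 12721 genes. These factors had a higher median normalized value than all genes, 1707 beside 1181. They were chosen as regional and cell type factors, and the part that tissue makeup has in their spread was not tested.

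**Figure D3:**
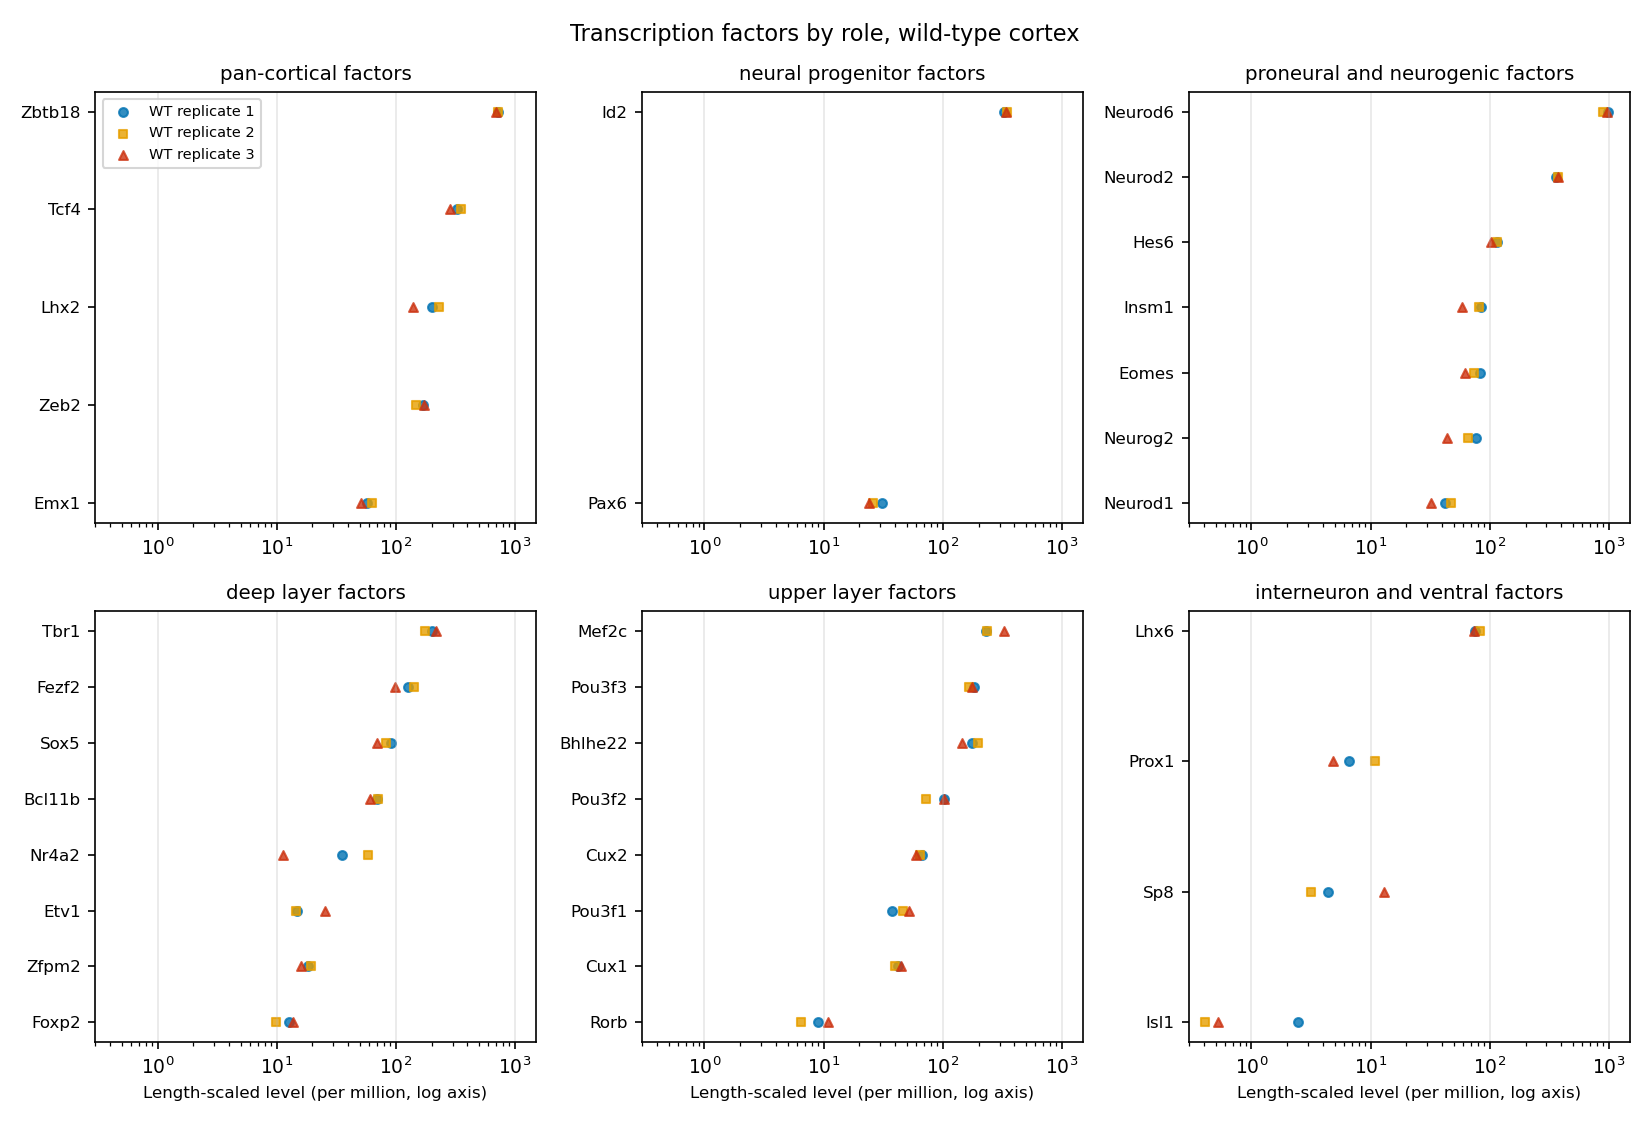
Length-scaled level (log axis, scaled to a sum of 1000000 per library) of transcription factors named in the text, from 6 of the lists, with 1 point for each WT library. Neurod6, Zbtb18 and Neurod2 lie between 300 and 1000 in all 3 libraries, while the points of Isl1, Nr4a2 and Sp8 are the farthest apart.

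Marker lists of 21 cell types and regions were summed for each library. In bulk tissue, fewer cells of a type and less RNA per cell cannot be told apart. The layer neuron lists had the smallest ratios of highest to lowest sum among the 21. The 15 deep layer markers summed to 1053, 1086 and 1041, with Tbr1, Fezf2 and Ldb2 the highest. The 14 upper layer markers, with Mef2c and Lhx2 among the highest, summed to 1366.5, 1389 and 1409.6. These sums differed by less than 5% between libraries, although single members such as Crym (50.7, 78.0 and 35.3) and Syt6 (33.3, 23.6 and 51.0) did not.

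Radial glia markers were present in all libraries. The 14 of them summed to 2682, 2744 and 2150.3, of which Fabp7, a fatty acid binding protein, made up 1511, 1527 and 1221. Vim and Ptprz1, a receptor phosphatase at 220.2 ± 19.5, came next. The proliferation genes Top2a, at 69.5 ± 10.2, and Mki67, at 38.8 ± 6.76, were present in all libraries. Replicate 3 had the lowest normalized value for 11 of the 13 radial glia markers with a mean of at least 50, beside 39.7% of all 12721 genes. The same library was lowest for 9 of 9 intermediate progenitor markers, whose list summed to 581, 553 and 444. Hes6 at 111 ± 6.85, Elavl2 at 104 ± 7.72 and Insm1 at 74.9 ± 14.2 led that list, and Neurog2, a proneural factor, had levels of 77.0, 65.7 and 43.6.

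GABAergic interneuron markers were clearly present, with Npy, a neuropeptide, at 240, 269 and 411 and Sst, or somatostatin, at 107, 97.6 and 87.3. Lhx6, the factor of interneurons from the medial ganglionic eminence, stood at 77.7 ± 4.55. The list summed to 727, 725 and 940.2, and replicate 3 was highest for 10 of 15 markers, beside 36.6% of all 12721 genes. Cajal-Retzius markers summed to 199.2 ± 26.3, led by Reln (reelin) at 97.1 ± 7.35, Calb2, shared with interneurons, at 25.6, 35.4 and 72.7, and Cacna2d2 at 31.4 ± 2.66.

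Glial markers were present, with those of mature cells low. Of 12 astrocyte markers, 11 reached a level of 1, led by Sparcl1 at 247 ± 51.6, Apoe at 182 ± 15.1 and Aldoc at 99.5 ± 16.6, whereas the mature marker Aqp4 stood at 1.88 ± 0.477. The oligodendrocyte list summed to 127, 149 and 187. All 8 members with a mean normalized value of at least 50 were highest in replicate 3, beside 36.6% of all 12721 genes. Cspg5 at 38.0 ± 5.13, Olig1 at 37.2 ± 11.99 and Pdgfra, the receptor of oligodendrocyte precursors, at 22.8 ± 2.63 led it. Myelin genes were low, with Mbp at 13.5 ± 2.39, Mag at 0.348 ± 0.142 and Mog listed at 0 in each library.

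Vessels, immune cells and meninges were next. Endothelial markers summed to 441 ± 22.6 with Cldn5 at 112 ± 1.08, Slc2a1 at 68.9 ± 7.51 and Ramp2 at 42.3 ± 3.9999, and their median log2 range was 0.14, beside 0.19 over all 12721 genes. Pericyte and smooth muscle markers summed to 265 ± 17.5, led by Rgs5 at 81.3 ± 6.94, Vtn at 66.0 ± 6.76 and Myl9 at 31.6 ± 2.19. Microglia and macrophage markers summed to 149.9 ± 11.3, with the complement genes C1qb at 25.7 ± 1.59 and C1qc at 23.99 ± 2.57 ahead of Pf4 at 15.9 ± 2.06. Meningeal markers summed to 381, 411 and 483, led by Igf2, Col3a1 and Col1a2. Of the 12, 10 were highest in replicate 3, beside 36.6% of all 12721 genes.

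Blood was the largest of the non-neural sums. Erythroid markers summed to 7876, 6007 and 5274, and all 5 with a mean normalized value of at least 50 were highest in replicate 1 and lowest in replicate 3. The adult alpha globin Hba-a2 had levels of 3104, 2221 and 2113, the beta globin Hbb-bs 2476, 2069 and 1607 and Hba-a1 1419, 1126 and 1103. The globin genes share sequence with each other, so the split between them is uncertain and their values are not independent. The embryonic globins Hbb-y, at 0.718 ± 0.307, and Hba-x, at 0.555 ± 0.211, were low.

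**Figure D4:**
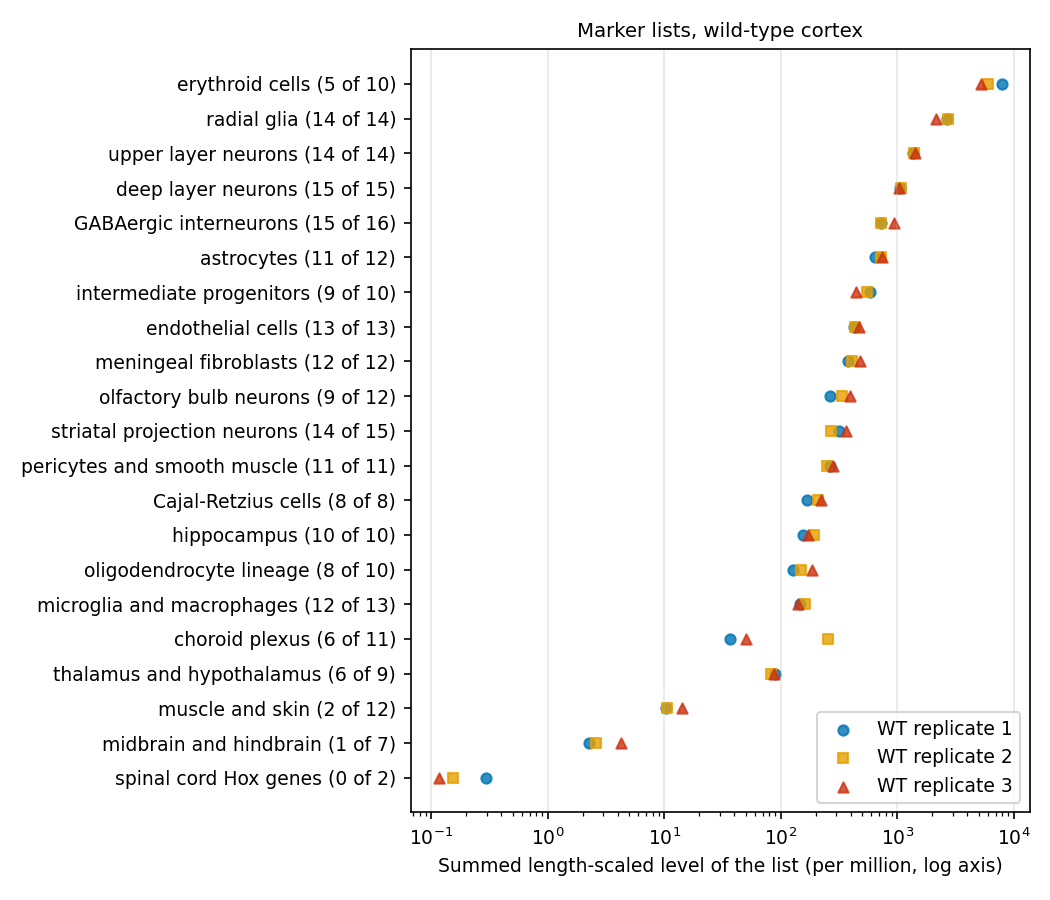
Summed length-scaled level (log axis, scaled to a sum of 1000000 per library) of each of 21 marker lists, with 1 point for each WT library and, in brackets, how many members in the table reached a level of 1. Most lists have 3 nearly coincident points, and the choroid plexus list is the widest, with 257 in replicate 2 beside 36.8 and 50.3.

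Choroid plexus markers differed most between libraries. The choroid plexus list summed to 36.8, 257 and 50.3, a 6.99-fold difference between the highest and the lowest library. Ttr, or transthyretin, the thyroid hormone carrier secreted by the choroid plexus, had normalized values of 110, 3156 and 36.1 and accounted for most of this. Folr1, at 1.56, 39.2 and 2.45, and Kcne2, at 4.97, 46.6 and 6.58, were also highest in replicate 2, but Enpp2, at 828, 1065 and 1307 and Aqp1, at 189, 253 and 337, were highest in replicate 3. Of the 11 members, 6 reached a level of 1.

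Of the 7 olfactory bulb markers with a mean normalized value of at least 50, 4 were highest and 3 lowest in replicate 3. Of all 12721 genes, 36.6% were highest and 39.7% lowest in replicate 3. Some members were far higher in that library. Cdhr1, a cadherin-related protein of mitral and tufted cells, had normalized values of 43.3, 45.1 and 2229.7. Th, the tyrosine hydroxylase of dopaminergic cells, had 0, 1.92 and 127, Scgn 0, 2.02 and 56.1, and Tbx21, a factor of mitral cells, 2.38, 3.38 and 84.2. Lbhd2 was listed at 0, 0 and 17.7. All 5 genes were high in replicate 3 alone. Other members of the list did not follow, with Doc2g at 646, 660.4 and 642, and Eomes, shared with intermediate progenitors, at 3758, 3357 and 2806. The list's sum, dominated by Ptgds, which the meninges also make, was 262, 336 and 394. The share of olfactory bulb in each sample was not tested.

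The 150 bases before the start sites of Cdhr1 and Th are shown because these 2 genes were far higher in replicate 3 than in the other libraries, with capitals as before. Cdhr1 is read from chr14:37098348-37098497 and Th from chr7:142899996-142900145, both on the minus strand of GRCm38.p6. Cdhr1 has 1 CCAAT match, on the opposite strand, starting 21 bases before its start site. Th has the full cyclic AMP response element starting 45 bases before its start site, a motif that 3.21% of all genes hold in the longer window.
Cdhr1: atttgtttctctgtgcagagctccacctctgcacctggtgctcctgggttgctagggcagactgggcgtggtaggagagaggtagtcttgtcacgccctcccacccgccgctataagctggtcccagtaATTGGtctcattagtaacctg
Th: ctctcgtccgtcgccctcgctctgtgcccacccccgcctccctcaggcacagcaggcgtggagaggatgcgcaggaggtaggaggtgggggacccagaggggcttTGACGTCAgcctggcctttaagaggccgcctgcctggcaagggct

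Markers of other brain regions were summed in the same way. Striatal markers summed to 314, 271 and 366, led by Meis2 at 171 ± 16.6, Ppp1r1b (DARPP-32) at 43.1, 37.3 and 73.6 and Foxp1 at 38.8 ± 2.95. Isl1, a factor of striatal neurons, had normalized values of 79.6, 13.1 and 16.7, and Six3 had 209.7, 47.4 and 34.0, both highest in replicate 1. Hippocampal markers summed to 174 ± 18.6, led by Dkk3 at 48.4 ± 13.95, Neurod1 at 40.6 ± 7.82 and Zbtb20 at 29.2 ± 8.62. Prox1, the factor of the dentate gyrus, had levels of 6.56, 10.9 and 4.84. The thalamus and hypothalamus list summed to 86.5 ± 2.94, of which Slc17a6 and Prkcd, at 38.1 ± 0.821, made up most, and Tcf7l2, the thalamic factor, stood at 3.31 ± 0.522. The midbrain and hindbrain list was led by Slc6a4, the serotonin transporter, at 2.34 ± 1.06, with Tph2 at 0.365 ± 0.112 and Gata3 at 0.105 ± 0.0942. The Hox list held Hoxd8 at 0.174 ± 0.0903 and Hoxd3 at 0.0151 ± 0.0133. Muscle and skin markers summed to 11.7 ± 2.21, with Krt10 at 6.51 ± 0.264, Acta1 at 3.602 ± 1.96 and Tnnt3 at 0.529 ± 0.156.

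The genes that varied most between the 3 libraries were then ranked by their range, the difference between the highest and the lowest value of log2(normalized value + 1). On this scale the differences of low genes are understated. Of 12721 genes with a mean normalized value of at least 50, 304 had a range above 1, or 2.39%. The odd library was replicate 3 in most of them. It was high in 137 genes and low in 54, while replicate 1 was high in 13 and low in 47, and replicate 2 was high in 29 and low in 24. The minimum is a mean over all 3 libraries, so some genes pass it only through the library where they are high. Mybpc1, Baiap3 and Ttn, given below, are of this kind and are counted among the high genes. Of the same 12721 genes, 73 had a range above 1 without replicate 3, 213 without replicate 2 and 172 without replicate 1. The gene just inside the threshold, CK137956, had a range of 1.00 and the gene just outside, Pex5l, of 0.999.

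Range depended on level. The median range was 0.50 for the 787 genes with a mean value from 50 to 100, of which 14.5% had a range above 1, and 0.14 for the 575 genes of at least 10000, of which 0.174% did. From counting error alone, the mean range expected of a gene had a median over genes of 0.28 and 0.02 in these groups. This assumed independent reads and 1 average value per read for the 3 libraries. Most genes were thus steadier than a 2-fold range at every level, but low genes passed the threshold more often.

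Genes that share sequence with another gene were frequent among the most variable genes. A gene is called sharing here if at least 50% of its 31-base words also occur in another gene of the table. Sharing genes were 3.48% of the 12721 genes but 16.4% of the 304 variable ones, and 11.3% of them were variable, against 2.06% of protein-coding genes with their own sequence. Of the 25 genes with the largest range, 15 were sharing, 9 were pseudogenes and 9 had a value of 0 in a library. In 48 variable sharing genes, a single partner among the described genes held at least 50% of the words. Their median range was 1.84 alone and 0.22 when their values were summed with those of the partner, and in 45 of the 48 the summed range was at most 1. In 18 of them the partner's mean was over 10 times that of the gene, so that the partner alone sets the summed range. In the other 30, the median range was 2.03 for the gene, 1.23 for the partner and 0.52 for the sum. The sum had a smaller range than either gene in 21. A pair in which both genes were variable, such as Tom1 and Gm5884, enters these counts once for each gene, so they are not counts of separate pairs.

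Examples, chosen after their values were seen, show the values of such genes beside those of their partners. Gm28661 had 25805, 1861 and 882, while mt-Co2, with which it shares its sequence, had 135686, 144446 and 158306. Their sum was 161491, 146307 and 159188, a range of 0.14. Tom1, an endosomal adaptor, had 329.5, 172 and 44.3 and its processed pseudogene Gm5884 had 0, 208 and 345, which sums to a range of 0.24. Nanp, a sialic acid phosphatase, had 17.9, 315 and 66.8 and Gm6741 had 298, 0 and 243, which sums to a range of 0.03. The ribosomal pseudogene Rps6-ps4 had 113, 1835 and 1577, against 15271, 12641 and 12493 for Rps6. Trpc2, with 161, 175 and 0, and Xntrpc, with 287, 211 and 499, are overlapping gene models on chromosome 7 and had a summed range of 0.37. Entpd4, at 0, 99.6 and 164, has a copy at another place on chromosome 14, Entpd4b, and their summed values had a range of 0.72.

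Among genes with their own sequence, Ttr and Cdhr1 were joined by others with a large range. Mybpc1, a myosin binding protein of slow muscle, had 3.12, 9.30 and 222, and Cpne6, a calcium-dependent membrane-binding copine, 191, 173 and 1479, both high in replicate 3. Baiap3 had 23.2, 42.0 and 226, again high there. Capn11, a calpain protease, had 328, 97.0 and 4.78, Dsc3, a desmosomal cadherin, 102.3, 236 and 9.60, and Cr2, a complement receptor, 90.5, 201 and 13.2, all low in replicate 3. Ttn, the giant sarcomere protein titin, had 186, 18.4 and 18.4, high in replicate 1 alone. Its length-scaled level was only 0.0544, the mean over a very long transcript.

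The next in rank included neuronal regulators, named here because of their values. Igf1, a growth factor, had 168, 188 and 713, Sp8, a zinc finger factor of the anterior forebrain, 254, 178 and 742, Cbln2, a synapse organizer, 567, 259.96 and 1384, and Pbx3, a homeodomain factor, 873, 588 and 1944. All 4 were highest in replicate 3. Nr4a2 had 1629.6, 2623 and 515, Slit3, a secreted axon guidance protein, 508, 669 and 139, and Chodl 192, 277 and 79.9, all lowest there. Tac2, the neurokinin B precursor, with 55.4, 121 and 20.3, was also lowest in replicate 3.

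The 5 olfactory bulb markers named above were high in replicate 3, and most progenitor markers were lowest there. Of these 5, only Cdhr1 could be among the 137 genes that were high in replicate 3. Th, Scgn, Tbx21 and Lbhd2 fell below the minimum mean normalized value. Of the markers that reached this minimum, 0 of 13 for radial glia and 1 of 9 for intermediate progenitors were variable. The latter, Neurod4, had normalized values of 123, 121 and 46.5. These progenitor lists thus supplied at most 1 of the 54 genes that were low in replicate 3. What lay behind the other genes was not tested. Of the 251 variable protein-coding genes with their own sequence, 126 had replicate 3 high and 47 had it low.

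**Figure D5:**
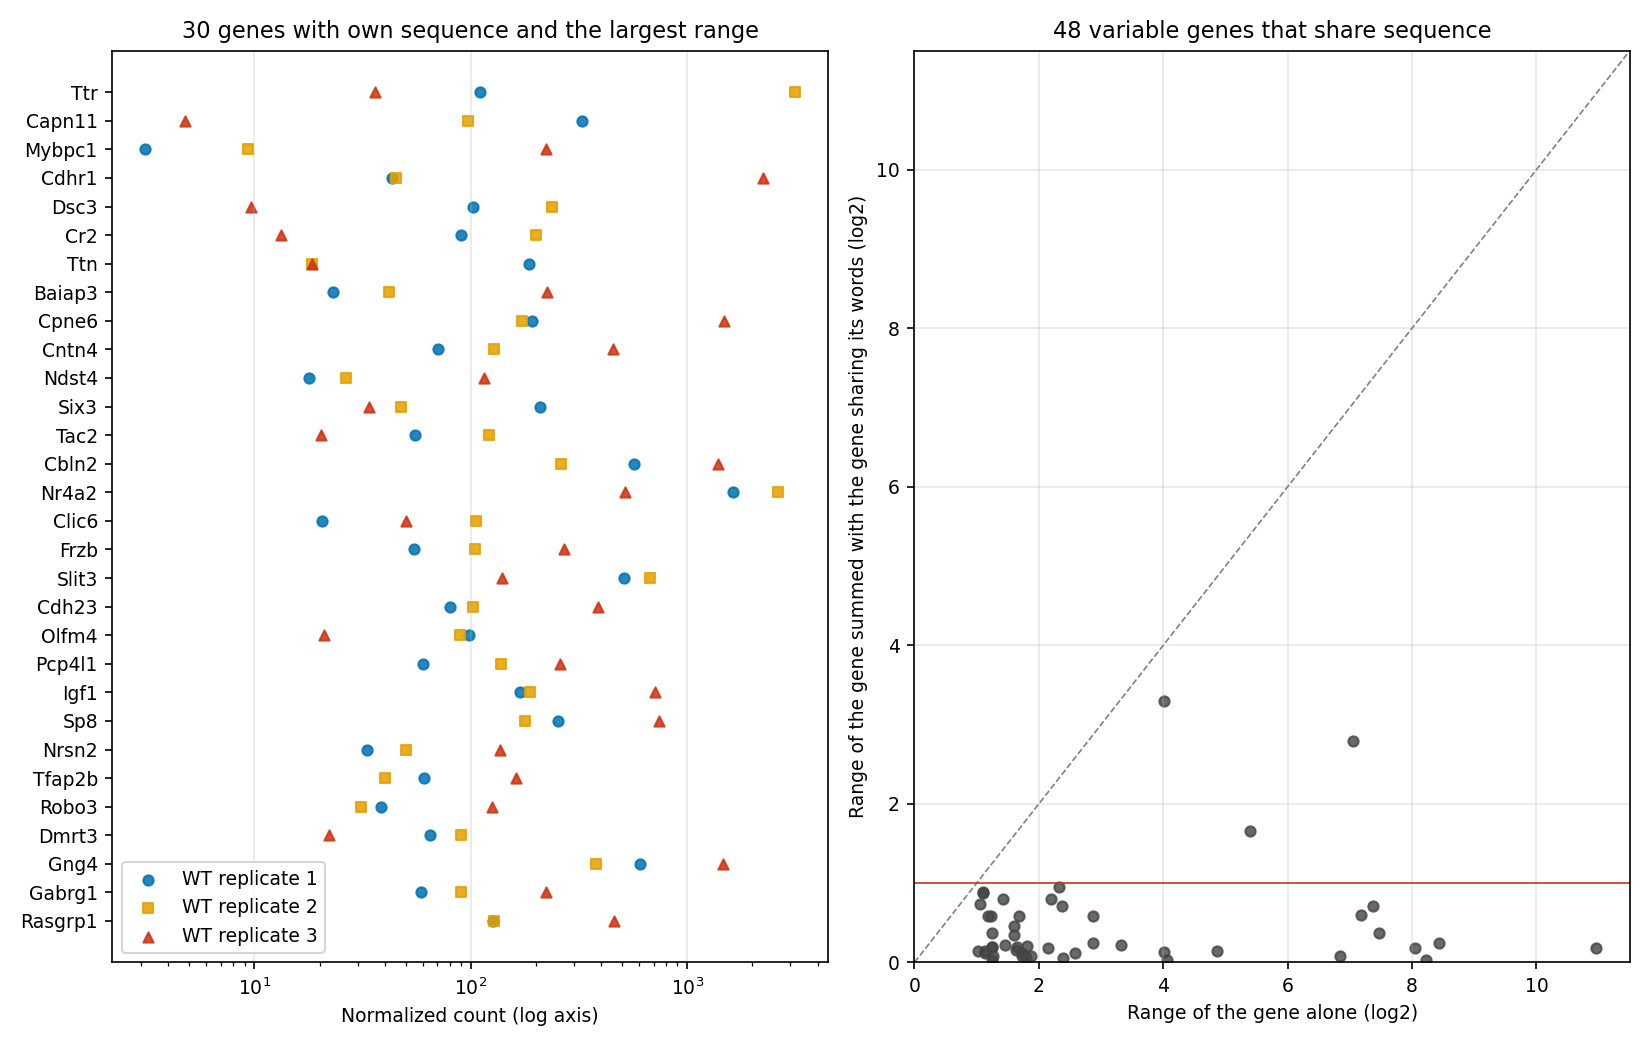
Left, normalized count (log axis) of the 30 named protein-coding genes with their own sequence and the largest range, with 1 point for each WT library. Right, for 48 variable genes that share sequence, the log2 range of the gene alone against the range after adding the partner's value, where the red line marks 1 and the dashed line equality; all but 3 genes lie below 1.

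At the other end, many genes hardly differed. Of 6928 genes with a mean normalized value of at least 1000, 30.7% had a range under 0.1, and the median range was 0.14. The steadiest was Gmps, the guanosine monophosphate synthetase, with 2531, 2535 and 2534, in which the highest library exceeded the lowest by 0.177%. Zc3h14, a zinc finger protein that binds poly(A) tails, had 3737, 3738 and 3744. Others of the 10 smallest ranges were Ubxn7, Zfp282, Senp3, Btrc, Bbip1, Kbtbd7 and Ncbp2, of which none exceeded a range of 0.01.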

How the data were processed

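Polyadenylated RNA was sequenced with a stranded kit, per the labels' protocols. The values the authors deposited are, per the file headers, DESeq counts, treated here as a signal: read counts after division by a size factor for each library. GRCm38, DESeq2 1.19.11, R 3.6.0 and Salmon 0.11.2 appear in the submitters' processing notes, with no role or order. Low values lay near multiples of a step worth 1.20, 0.675 and 0.947 in replicates 1 to 3, but only 71.9% to 74.6% of values under 6 were within 0.1 of a whole number of steps, so reads could not be recovered and depths are approximate.

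Groups came from the titles. Genes were matched to GENCODE M21 (GRCm38) for length and position. With 1 group of 3 libraries nothing was tested: all results are descriptions with their spread. The range used a pseudocount of 1 and a mean of at least 50. Families, factors, markers and the libraries themselves were chosen with earlier results of these data known. Genes were named by fixed rules: the 25 highest levels, each family's leading member (all members where it held under 60% or belonged to the WAVE complex), the 20 highest factors and all layer factors, the 3 highest of each marker list, the 25 largest and the 10 smallest ranges; others were named for their values. Some genes and families that these rules name are not reported here. Promoters are RefSeq's (GRCm38.p6), matched for 12428 of 16233 genes. Python 3.11.15, pandas 2.3.3 and numpy 2.4.6 were used, and the scripts were tested on simulated data.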

Additional observations from a re-analysis of the deposited data

How the results depend on the processing

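No paired analysis was possible because a single group was described and nothing was tested. The share of the 100 highest genes was 35.0% with merged exons as the length, 21.6% with the median transcript length and 23.3% among nuclear genes alone, the last chosen after seeing the data; leaving out a library gave 30.9% to 31.1%. The number of variable genes was 800 at a mean of at least 10 and 2986 with no minimum. With the minimum mean over the remaining libraries, it ran from 71 without replicate 3 to 221 without replicate 2, with 184 without replicate 1. It was 251 among protein-coding genes with their own sequence, also chosen after seeing the data. Of 56 named ranges, 31 were no longer above 1 without replicate 3. Without it, 1 transcription factor, 1 paralog member and 5 marker genes were variable, of 11, 6 and 22. These counts, and the split of copy pairs by the size of the partner, were added after seeing the data.

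The leading paralog was the same under every alternative in 41 of 56 families, and leaving out a library changed none. With merged exons Gad2 (50.7%) and Ldhb (53.8%) led. With the median transcript length the leader changed in 13 families, of which 11 are reported: Wasf2 (57.4%), Vim (53.6%), Calm3 (52.1%), Scn8a (55.0%), Slc17a6 (60.4%), Syt5 (32.4%), Nova1 (58.3%), Smarca2 (78.2%), Phf10 (43.3%), Dnmt3a (78.9%) and Tet1 (60.5%). That length includes short partial transcripts, and which length fits these genes was not tested.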

Other observations

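Imprinted genes, which are read from 1 parental copy, form a group whose members were chosen after their values were seen. Counts over this group were thus open to selection. Of 30 in the table, 25 reached a level of 1 and 18 a level of 10, and their sum was 4356, 4368 and 4437 in replicates 1 to 3. Nnat (neuronatin) ranked 34th of all genes with levels of 2228, 2153 and 2096. Gnas, a G protein subunit, had 661, 721 and 785, Snrpn 306, 310.5 and 349, and Ndn (necdin) 173, 181 and 197. The growth regulators Igf2 and Cdkn1c stood at 159 ± 16.2 and 119 ± 7.29. None of the 23 members with a mean normalized value of at least 50 had a log2 range above 1, beside 2.39% of all genes at that level. Dio3, the enzyme that inactivates thyroid hormone, was below that mean, with normalized values of 62.7, 24.04 and 5.40.

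Genes known to be graded along the cortex were also listed after their values were seen. The counts below were thus open to selection, and the shares over all genes do not measure how unusual they are. All 7 genes of the list that is higher towards the caudal pole were lowest in replicate 3 and highest in replicate 2. Of all 12721 genes with a mean normalized value of at least 50, 39.7% were lowest in replicate 3 and 27.4% highest in replicate 2. Nr2f1 (COUP-TFI) had normalized values of 6119, 7247 and 3015, Fgfr3 had 2206, 2306 and 853, and Crym had 1743, 2648 and 1201. Lhx2, Bhlhe22, Tenm3 and Emx2 had log2 ranges between 0.43 and 0.71. Of 6 genes that are higher towards the rostral pole, 4 were highest in replicate 3, beside 36.6% of all 12721 genes. Sp8 and Etv1 were among these 4, while Pax6 was lowest in replicate 3. Whether the 3 samples covered the same extent of cortex was not tested.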
